A study of Homo sapiens with 6 samples.

Results

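Mitotic entry is driven by CDK1, the cyclin-dependent kinase that starts mitosis once it is bound by a B-type cyclin. The group described here holds 10 genes of 18417 measured: CDK1 (named CDC2 in older annotations) and its inhibitory kinase WEE1, the cyclins CCNA2, CCNB1 and CCNB2, the phosphatases CDC25A, CDC25B and CDC25C, and the transcription factors FOXM1 and MYBL2. They were chosen by name, each gene being represented by its single-symbol probe set with the highest mean signal. All 10 were measured on 6 Affymetrix Gene 1.0 ST arrays, 2 biological replicates each of BJ, BJEL and BJELM cells. BJ are primary human foreskin fibroblasts, whose medium held no selection drug per the labels. BJEL derive from BJ through transfer of hTERT, which restores telomerase activity, together with the SV40 early region and its large T and small t antigens, and were kept in G-418 and hygromycin. BJELM were made from BJEL with a retrovirus carrying MYC-ER, a MYC protein fused to an estrogen receptor domain, and were kept in G-418, hygromycin and puromycin with continuous 4-hydroxytamoxifen. The sources name a single line for each stage, so the introduced genes, the drugs and the history of the line cannot be told apart.

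WEE1 holds CDK1 inactive by phosphorylating it, and the CDC25 phosphatases remove that phosphate. Cyclin A2 acts from S phase into early mitosis, whereas cyclins B1 and B2 accumulate in G2 and drive entry. MYBL2 (B-MYB) and FOXM1 are transcription factors that act in sequence, with the MuvB protein complex, on the promoters of late cell cycle genes, while in resting cells MuvB joins the RB relatives p107 and p130 and E2F4 in the repressive DREAM complex. SV40 large T antigen binds RB and its relatives. In proliferating fibroblasts most of these transcripts peak from S phase to mitosis. In RNA from a whole culture, a greater share of cells in these phases and more transcript per cell cannot be told apart.

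Promoters of this group are known for NF-Y boxes (CCAAT), CHR elements (cell cycle genes homology region, bound by MuvB) and E2F sites, and the 120 bases before an annotated start are shown because these are the elements through which the family is known to be regulated. RefSeq promoter windows (GRCh38.p14, from 250 bases before to 50 after a start) were found for 8 of the 10 genes and were not found here for FOXM1 and WEE1. Where a gene has several starts, the start with most matches is shown. Each sequence is written 5′ to 3′ on the strand of the gene, and the last base lies directly before the start. Capitals mark matches on either strand to CCAAT, to the CHR letters TTTGAA or TTCGAA, to the CHR variants CTTGAA or TTTAAA, or to the E2F letters given by TT, then CC, CG, GC or GG, then CGC or CGG.
CDK1, GRCh38.p14 chr10:60778358-60778477, plus strand: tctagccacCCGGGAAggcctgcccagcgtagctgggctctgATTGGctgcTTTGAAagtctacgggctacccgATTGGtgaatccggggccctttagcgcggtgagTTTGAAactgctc
CCNA2, GRCh38.p14 chr4:121823884-121824003, minus strand: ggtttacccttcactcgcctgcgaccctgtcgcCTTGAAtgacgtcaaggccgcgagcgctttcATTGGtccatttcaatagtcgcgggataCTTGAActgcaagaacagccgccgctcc
CCNB1, GRCh38.p14 chr5:69167030-69167149, plus strand: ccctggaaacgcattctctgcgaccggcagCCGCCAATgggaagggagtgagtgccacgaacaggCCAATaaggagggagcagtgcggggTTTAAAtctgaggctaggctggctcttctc
CCNB2, GRCh38.p14 chr15:59105026-59105145, plus strand: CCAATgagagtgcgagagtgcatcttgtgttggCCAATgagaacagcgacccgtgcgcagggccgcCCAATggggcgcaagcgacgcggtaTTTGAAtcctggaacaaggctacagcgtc
CDC25A, GRCh38.p14 chr3:48188418-48188537, minus strand: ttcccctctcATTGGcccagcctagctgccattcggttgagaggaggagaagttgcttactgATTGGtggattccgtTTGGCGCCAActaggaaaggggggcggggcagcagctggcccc
CDC25B, GRCh38.p14 chr20:3796190-3796309, plus strand: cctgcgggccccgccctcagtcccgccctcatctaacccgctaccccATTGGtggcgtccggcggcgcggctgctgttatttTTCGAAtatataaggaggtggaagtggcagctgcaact
CDC25C, GRCh38.p14 chr5:138331805-138331924, minus strand: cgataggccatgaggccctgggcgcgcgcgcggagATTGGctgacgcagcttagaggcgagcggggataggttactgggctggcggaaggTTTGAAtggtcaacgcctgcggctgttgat
MYBL2, GRCh38.p14 chr20:43666994-43667113, plus strand: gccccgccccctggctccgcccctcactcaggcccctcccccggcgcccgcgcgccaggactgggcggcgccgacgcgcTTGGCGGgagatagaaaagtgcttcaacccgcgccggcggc
In CCNB1 an E2F match overlaps the first CCAAT box, and in CDC25A the capitals near the start side are overlapping E2F matches on opposite strands.

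An NF-Y box was present in the shown bases of 7 of the 8 genes, all but MYBL2, against 20.4% of all 35116 windows of that length. CHR letters were found in CDK1, CCNB2, CDC25B and CDC25C (6.11% of all windows), and CHR variants in CCNA2 and CCNB1 (8.65%). An NF-Y box together with a CHR or variant was thus held by 6 of 8 genes, against 2.95% of all windows. These 8 windows were picked from 15 for their matches, so their counts are not comparable with the shares of all windows. Over all 15 windows of the 8 genes the NF-Y box was present in 8, CHR letters in 4, CHR variants in 2, the pair in 6 and E2F letters in 6. In the bases shown, E2F letters stood in CDK1, CCNB1, CDC25A and MYBL2, against 11.4% of all windows. Of the 4 genes called below in BJEL against BJ, CDC25A and MYBL2 held E2F letters and no CHR or variant in the bases shown. CDK1 held both E2F and CHR letters, and CDC25C held CHR letters without E2F letters. CCNB1, which was not called, also held E2F letters. A link between these letters and the differences in signal was not tested. The letters searched were chosen with these windows in view. The E-box CACGTG, to which MYC and MAX bind, was absent from the shown bases of all 8 genes and lay 196 bases before the start in CCNB1 and 243 bases before it in MYBL2 (7.26% of all windows of 300 bases). A match of letters describes the sequence and does not show that a factor binds.

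**Figure D1:**
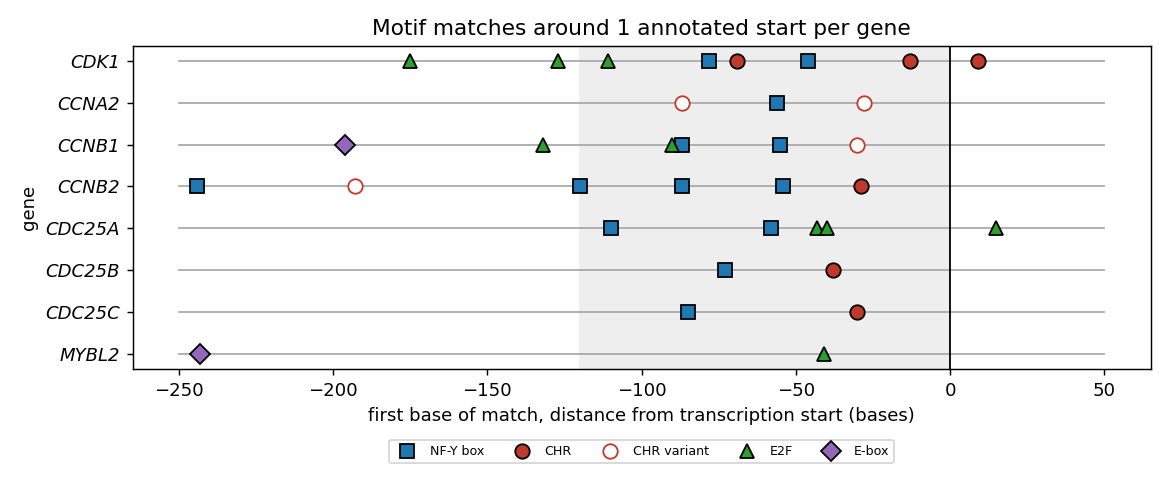
Positions of motif matches (first base, in bases from the annotated transcription start, horizontal axis) for 8 genes (vertical axis). Squares are NF-Y boxes, filled circles CHR letters, open circles CHR variants, triangles E2F letters and diamonds E-boxes, and the grey band marks the 120 bases shown. In 5 genes (CCNA2, CCNB1, CCNB2, CDC25B and CDC25C) the last CHR or variant before the start begins between 28 and 38 bases before it, and in CDK1 it begins 13 bases before it, with at least 1 NF-Y box further upstream in each.

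The introduced genes were examined first. TERT had log2 signals of 7.77 and 7.88 in BJ, 10.71 and 10.97 in BJEL, and 10.84 and 10.78 in BJELM. MYC had log2 signals of 9.47 and 9.61 in BJ, 10.22 and 10.12 in BJEL, and 9.57 and 8.90 in BJELM. The MYC signal was thus lower, not higher, on the arrays labelled BJELM than in BJEL, and every direction given for BJELM below is one of the arrays labelled so. Whether the probes of this set lie in the MYC-ER transcript was not tested, and the arrays give mRNA, not MYC-ER protein. Of 10 fibroblast markers all lay above the median of all genes in BJ and 8 did so in BJEL and in BJELM. In BJ, the foreskin fibroblasts, 2 of 11 markers of other cell types lay above that median. The epithelial marker EPCAM averaged 5.41, the endothelial marker PECAM1 5.10 and the leukocyte marker PTPRC 4.48, against a median of 7.24 over all genes. The 2 above it were CD68, a macrophage marker, and MITF, a melanocyte marker. The log2 of the summed signal of the fibroblast list lay between 15.46 and 15.57 in BJ, between 14.53 and 14.57 in BJEL and between 14.30 and 14.62 in BJELM. That of the other cell types lay between 11.86 and 11.98 in BJ, between 11.77 and 11.81 in BJEL and at 10.95 in BJELM. The part of these levels in the results on mitotic entry was not tested.

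The comparison of BJEL with BJ addresses the pre-transformation step. All 10 mitotic entry genes had a higher mean in BJEL, and on all 10 both BJEL arrays lay above both BJ arrays, which was the case for 29.2% of all genes. By limma, CDC25A, MYBL2, CDK1 and CDC25C rose, that is, their adjusted p lay under 0.05 and the difference reached 2-fold. These are 4 of 10 members, against 2.89% of all genes. The methods' t-test, in a plain form, called 1 of them, MYBL2, at an unadjusted p under 0.05 and 0 after Benjamini-Hochberg adjustment. With no fold minimum 9 of 10 passed, against 10.4% of all genes, WEE1 being the exception. The median difference over the members was 0.89 on the log2 scale, and over all genes it was -0.017. No member fell, where 2.29% of all genes did.

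**Figure D2:**
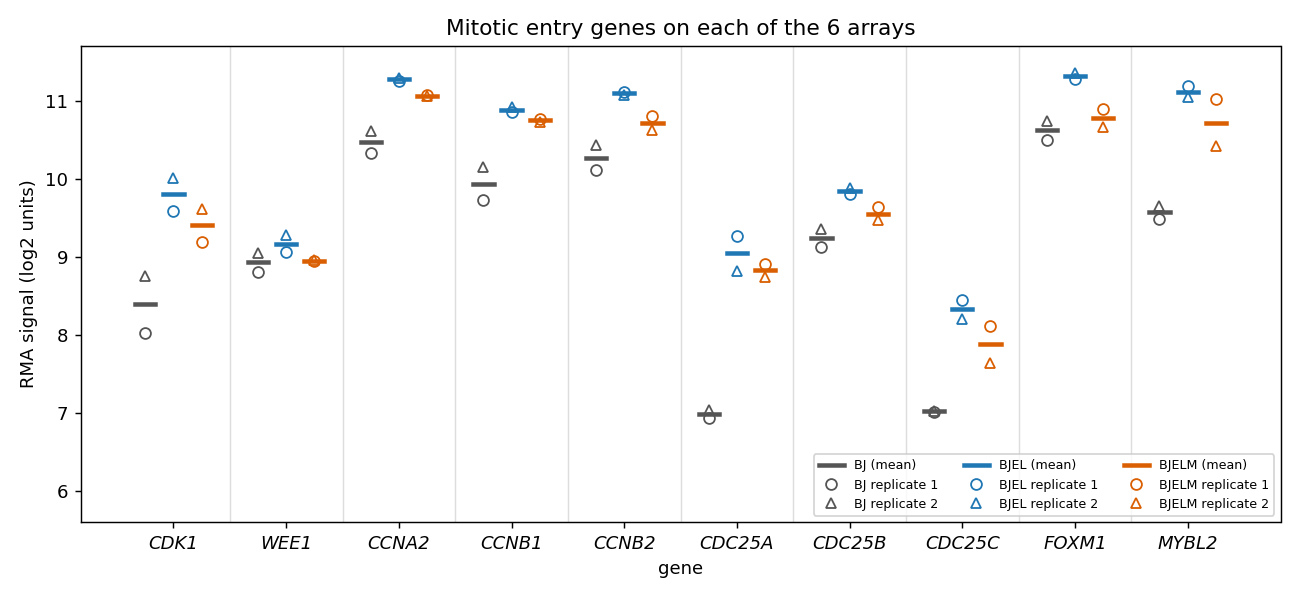
RMA signal in log2 units (vertical axis) of the 10 genes (horizontal axis) on each array, with replicate 1 as circles, replicate 2 as triangles, bars for the mean of 2 arrays, and colors for the cell line. All BJEL points lie above all BJ points of the same gene, with WEE1 nearest to overlap (9.05 on the higher BJ array and 9.06 on the lower BJEL array), and the means of the arrays labelled BJELM lie below those of BJEL. Heights of different genes are not comparable, since each probe set has its own response.

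CDK1 (Entrez 983, probe set 7927710) had log2 signals of 8.02 and 8.76 in BJ, 9.59 and 10.01 in BJEL, and 9.19 and 9.61 in BJELM. The BJ arrays were the low ones, and BJEL and BJELM overlapped. It rose by 1.41 ± 0.28 (SE, n = 2 arrays per line, limma adjusted p = 0.0206) in BJEL, which is 2.66-fold with a 95% interval from 1.65 to 4.28. In each line replicate 2 was the higher array, and with the replicate number fitted as a block the limma adjusted p was 0.000148. The BJ arrays were further apart than those of any other member, and the call of CDK1 was lost in 3 of 6 fits that left out 1 array. Without BJ replicate 1 it stood at 1.04 (adjusted p = 0.0815), without BJEL replicate 1 at 1.62 (adjusted p = 0.0599) and without BJEL replicate 2 at 1.20 (adjusted p = 0.0984).

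WEE1 (Entrez 7465, probe set 7938348), the kinase that restrains CDK1, had log2 signals of 8.81 and 9.05 in BJ, 9.06 and 9.28 in BJEL, and 8.94 and 8.95 in BJELM. Its difference between BJEL and BJ was 0.24 ± 0.12 (adjusted p = 0.255), with a 95% interval from -0.060 to 0.53, so a 2-fold change lay outside the interval. WEE1 is the only member with more than 1 probe set, and its probe sets disagreed in size. The other 2, annotated to a single cDNA clone, differed by 1.09 ± 0.25 (adjusted p = 0.0622) and 0.91 ± 0.40 (adjusted p = 0.279) in the fit of every probe set, neither past the test.

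The cyclins passed the adjusted p and each stayed below the fold minimum. CCNA2 (Entrez 890, probe set 8102643) had log2 signals of 10.33 and 10.62 in BJ, 11.26 and 11.29 in BJEL, and 11.07 and 11.05 in BJELM. Its 3 groups did not overlap, and the difference of BJEL from BJ was 0.80 ± 0.11 (adjusted p = 0.00621), or 1.74-fold. CCNB1 (Entrez 891, probe set 8105828), the main partner of CDK1 at entry, had 9.72 and 10.15 in BJ, 10.85 and 10.92 in BJEL, and 10.77 and 10.73 in BJELM. The difference was 0.95 ± 0.15 (adjusted p = 0.00868), or 1.93-fold with a 95% interval from 1.51 to 2.47, and it passed the fold minimum without BJ replicate 2 (1.16, adjusted p = 0.00602). CCNB2 (Entrez 9133, probe set 7983969), the cyclin B located mainly at the Golgi, had 10.11 and 10.43 in BJ, 11.11 and 11.07 in BJEL, and 10.80 and 10.62 in BJELM. Its difference was 0.82 ± 0.13 (adjusted p = 0.00941).

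The CDC25 phosphatases covered the widest range among the roles. CDC25A (Entrez 993, probe set 8086880), which acts on CDK2 at the start of S phase as well as on CDK1, had log2 signals of 6.94 and 7.04 in BJ, 9.27 and 8.81 in BJEL, and 8.90 and 8.75 in BJELM. The BJ arrays stood well below the other 4. It rose by 2.05 ± 0.16 (adjusted p = 0.00118), or 4.15-fold with a 95% interval from 3.16 to 5.44, the 64th largest rise among the 18417 genes. CDC25C (Entrez 995, probe set 8114425), which activates CDK1 with cyclin B at entry, had 7.02 on both BJ arrays, 8.45 and 8.21 in BJEL, and 8.12 and 7.64 in BJELM, and no groups overlapped. It rose by 1.31 ± 0.17 (adjusted p = 0.00486). CDC25B (Entrez 994, probe set 8060675), the phosphatase held to start CDK1 activation at the centrosome, had 9.13 and 9.35 in BJ, 9.81 and 9.88 in BJEL, and 9.63 and 9.47 in BJELM. Its difference, 0.60 ± 0.11 (adjusted p = 0.016) or 1.52-fold with a 95% interval from 1.26 to 1.84, stayed under the fold minimum. That interval and the interval of CDC25A do not overlap.

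Among the transcription factors, MYBL2 (Entrez 4605, probe set 8062766) had log2 signals of 9.49 and 9.65 in BJ, 11.19 and 11.04 in BJEL, and 11.01 and 10.42 in BJELM. It rose by 1.55 ± 0.20 (adjusted p = 0.00451), or 2.92-fold with a 95% interval from 2.10 to 4.08. FOXM1 (Entrez 2305, probe set 7960340) had 10.50 and 10.74 in BJ, 11.27 and 11.35 in BJEL, and 10.89 and 10.66 in BJELM, where the arrays labelled BJELM overlapped BJ. Its difference between BJEL and BJ was 0.70 ± 0.13 (adjusted p = 0.0148), or 1.62-fold with a 95% interval from 1.31 to 2.00.

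BJELM with BJ spans both steps and uses the same BJ arrays as the comparison above, so the values of both are not independent. On the arrays labelled BJELM the members were again higher or level. CDC25A (1.83 ± 0.16, adjusted p = 0.000752), MYBL2 (1.15 ± 0.20, adjusted p = 0.00731) and CDK1 (1.01 ± 0.28, adjusted p = 0.0416) rose, which are 3 of 10 against 4.09% of all genes, and 0 fell (4.70% of all genes). The methods' t-test called 1, CDC25A, at an unadjusted p under 0.05 and 0 after adjustment. With no fold minimum 7 of 10 passed, against 15.1% of all genes. The arrays of 8 members did not overlap, against 31.7% of all genes, and the exceptions were WEE1 and FOXM1. The median difference was 0.70, and over all genes it was 0.011.

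In BJELM against BJ the limma adjusted p of CDK1 was 0.000267 with the replicate number fitted as a block. The rise of CDK1 lay at the fold minimum and held in 7 of 17 alternative analyses. It was lost in 5 of the 6 fits that left out 1 array, the exception being the fit without BJ replicate 2 (1.38, adjusted p = 0.0194), and the lowest value was 0.64 (adjusted p = 0.169) without BJ replicate 1. MYBL2 lost its call without BJELM replicate 1, at 0.85 (adjusted p = 0.00908), below the fold minimum, so that only CDC25A, 1 member, was then called. CDC25C stood at 0.86 ± 0.17 (adjusted p = 0.0125) and passed the fold minimum without BJELM replicate 2 (1.10, adjusted p = 0.00589). Of the cyclins, CCNB1 differed by 0.81 ± 0.15 (adjusted p = 0.0086), CCNA2 by 0.59 ± 0.11 (adjusted p = 0.0107) and CCNB2 by 0.44 ± 0.13 (adjusted p = 0.0498). CDC25B (0.31 ± 0.11, adjusted p = 0.0914), FOXM1 (0.16 ± 0.13, adjusted p = 0.461) and WEE1 (0.019 ± 0.12, adjusted p = 0.946) did not pass at any fold. The 95% interval of FOXM1 ran from -0.15 to 0.46 and that of WEE1 from -0.28 to 0.32. The other 2 probe sets of WEE1 gave 0.86 ± 0.25 (adjusted p = 0.0783) and 0.52 ± 0.40 (adjusted p = 0.533). Both values come from the fit of every probe set, and neither passed the test, so the level signal of WEE1 rests on the probe set used.

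**Figure D3:**
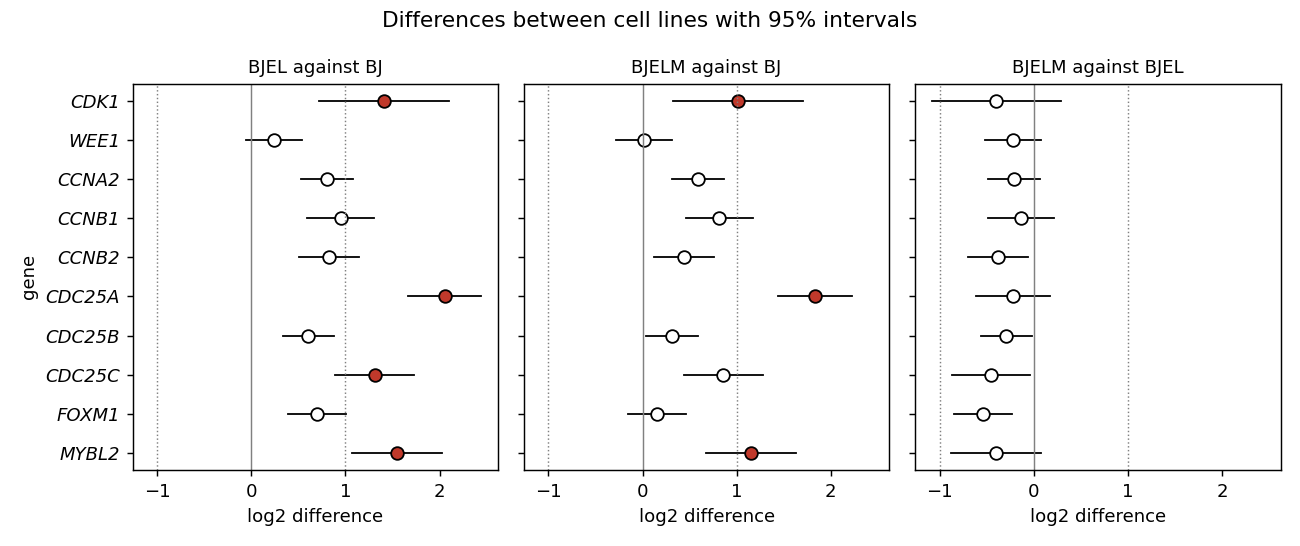
Log2 difference (horizontal axis) of each gene (vertical axis) in the 3 comparisons, with bars for the 95% interval from limma, filled points for genes past an adjusted p of 0.05 and a 2-fold change, and dotted lines at a 2-fold change. CDC25A has the largest difference in both comparisons with BJ (2.05 and 1.83), and in BJELM against BJEL all 10 points lie below 0, between -0.54 and -0.14.

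The added MYC-ER step is read in BJELM against BJEL. Every member had a lower mean on the arrays labelled BJELM, 10 of 10 against 43.6% of all genes, and for 8 members the arrays did not overlap, against 24.0% of all genes lower without overlap. CDK1 and CDC25A were those that overlapped. By limma 0 members passed in either direction, where 0.923% of all genes were called higher and 1.76% lower, while 4 members had an unadjusted p under 0.05 (25.4% of all genes), and the methods' t-test also called 0. The median difference was -0.34, and over all genes it was 0.029. FOXM1 was furthest below, at -0.54 ± 0.13 (adjusted p = 0.0473), or 0.688-fold with a 95% interval from 0.556 to 0.851. It passed without a fold minimum, 1 of 10 members against 6.28% of all genes, and in the 6 fits that left out 1 array its adjusted p lay between 0.0506 and 0.181. CDC25C followed (-0.45 ± 0.17, adjusted p = 0.166), then MYBL2 (-0.40 ± 0.20, adjusted p = 0.277), CDK1 (-0.40 ± 0.28, adjusted p = 0.454) and CCNB2 (-0.38 ± 0.13, adjusted p = 0.129). CCNB1 was nearest to 0 (-0.14 ± 0.15, adjusted p = 0.634), with a 95% interval from -0.49 to 0.22. CDK1 apart, the interval of every member lay within a 2-fold change of 0 in size, and that of CDK1 ran from -1.08 to 0.29.

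Replicates of a line differed in the same direction over many members. In BJ, replicate 2 lay above replicate 1 for 10 of 10 members, by a median of 0.25, where 41.7% of all genes were higher in replicate 2. In BJELM, replicate 2 was the higher array for 2 of 10 members (42.1% of all genes), with a median of -0.16. In BJEL it was the higher one for 6 of 10 (48.2% of all genes), with a median of 0.051. The median differences between lines were larger than these, although the median of -0.34 between BJELM and BJEL is near in size to the 0.25 between the BJ replicates.

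Other genes of the pathway were read from lists drawn up by role. Of 16 measured partners and upstream kinases of CDK1, 7 rose in BJEL against BJ (2.89% of all genes). In BJELM against BJ 3 rose (4.09% of all genes). In these comparisons 0 fell, where 2.29% and 4.70% of all genes did, and the medians were 0.92 and 0.67. MASTL, the Greatwall kinase that blocks the phosphatase opposing CDK1, rose by 1.92 ± 0.15 in BJEL (adjusted p = 0.00113). BORA, an activator of Aurora A, rose by 1.58 ± 0.12 (adjusted p = 0.00118), and PKMYT1, the membrane-bound relative of WEE1, by 1.27 ± 0.13 (adjusted p = 0.00257). MELK rose by 1.38 ± 0.10 (adjusted p = 0.001). CKS2, a small CDK-binding subunit, led in BJELM against BJ, with signals of 10.40 and 11.06 in BJ, 11.49 and 11.94 in BJEL, and 12.26 and 12.61 in BJELM (1.71 ± 0.26, adjusted p = 0.00477). Between BJELM and BJEL 0 of the 16 were called by limma, while 8 had an unadjusted p under 0.05 (25.4% of all genes). MASTL (-0.88 ± 0.15, adjusted p = 0.0181), BORA (-0.82 ± 0.12, adjusted p = 0.0131) and CCNH (-0.39 ± 0.09, adjusted p = 0.049) passed the adjusted p below the fold minimum and were chosen after their values were seen. The list median there was -0.12, with 10 genes below 0 (43.6% of all genes) and 6 above. The largest value above 0 was that of CKS2 (0.72 ± 0.26, adjusted p = 0.149). PLK1, the Polo-like kinase that acts on CDC25C and WEE1, stood at -0.12 ± 0.11 (adjusted p = 0.573).

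The 29 measured late cell cycle target genes of the MYBL2 and FOXM1 complexes had a median of 0.99 in BJEL against BJ. There 14 rose (2.89% of all genes) and 28 were higher past the adjusted p at any fold (10.4% of all genes). The spindle checkpoint kinase TTK (1.52 ± 0.14, adjusted p = 0.00174), the kinesin KIF2C (1.40 ± 0.13, adjusted p = 0.0019) and the chromosomal passenger genes CDCA8 (1.35 ± 0.10, adjusted p = 0.00106) and AURKB (1.31 ± 0.15, adjusted p = 0.00326) had the largest values. In BJELM against BJ 3 rose (4.09% of all genes), with a list median of 0.64. These were TTK (1.36 ± 0.14, adjusted p = 0.00123), BUB1B (1.35 ± 0.17, adjusted p = 0.00252) and AURKB (1.24 ± 0.15, adjusted p = 0.00204). In BJELM against BJEL 0 were called and the median was -0.39. There 5 were lower past the adjusted p below the fold minimum (6.28% of all genes lower at any fold). An unadjusted p under 0.05 was held by 16 (25.4% of all genes), and 25 lay lower without overlap (24.0% of all genes). There the anillin gene ANLN, which acts in cytokinesis, differed by -0.64 ± 0.12 (adjusted p = 0.0253), and the topoisomerase gene TOP2A by -0.37 ± 0.20 (adjusted p = 0.331).

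Among 13 subunits of DREAM and MuvB and their MYB relatives, 4 rose in BJEL against BJ (2.89% of all genes). These were RBL1, which encodes p107 (1.80 ± 0.12, adjusted p = 0.000734), the MuvB subunits LIN9 (1.63 ± 0.16, adjusted p = 0.00219) and LIN52 (1.22 ± 0.15, adjusted p = 0.00416), and MYBL1, the relative of MYBL2 (1.41 ± 0.09, adjusted p = 0.000734). In BJELM against BJ 3 rose (4.09% of all genes), E2F5 (2.19 ± 0.10, adjusted p = 0.000113), LIN9 (1.37 ± 0.16, adjusted p = 0.00193) and RBL1 (1.31 ± 0.12, adjusted p = 0.000754). Between BJELM and BJEL this list held 1 rise and 1 fall among 13 genes, where 0.923% of all genes rose and 1.76% fell. E2F5, an E2F of the repressive class, had 6.93 and 6.74 in BJEL and 8.47 and 8.50 in BJELM and rose by 1.65 ± 0.10 (adjusted p = 0.0012). MYBL1 had 11.23 and 11.29 in BJEL and 10.14 and 10.20 in BJELM and fell (-1.09 ± 0.09, adjusted p = 0.00296).

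Of 13 measured brakes on mitotic entry and checkpoint kinases, 1 rose and 1 fell in BJEL against BJ, and 2 rose and 1 fell in BJELM against BJ. With 13 genes, single calls are near the shares of all genes called in these comparisons (2.89% higher and 2.29% lower, and 4.09% higher and 4.70% lower). CDKN1A, a p53 target that encodes the kinase inhibitor p21, had signals of 10.98 and 10.72 in BJ, 9.43 and 8.50 in BJEL, and 8.45 and 7.20 in BJELM. It fell in both comparisons with BJ (-1.88 ± 0.46, adjusted p = 0.0379, and -3.02 ± 0.46, adjusted p = 0.0046). CLSPN, an adaptor of the checkpoint kinase CHEK1, was 1.97 ± 0.28 above BJ in BJEL (adjusted p = 0.00642) and 1.24 ± 0.28 above BJ in BJELM (adjusted p = 0.0196), called in both. CHEK2, a checkpoint kinase, rose by 1.82 ± 0.18 in BJELM against BJ (adjusted p = 0.00105). In the anaphase-promoting complex and mitotic exit list, 3 of 21 rose in BJEL (2.89% of all genes), namely FBXO5, ESPL1 and UBE2C. Their differences were 1.41 ± 0.14, 1.41 ± 0.18 and 1.20 ± 0.11 (adjusted p = 0.00232, adjusted p = 0.00494 and adjusted p = 0.00156). In BJELM against BJ, ESPL1, the separase gene, was the 1 that rose (1.25 ± 0.18, adjusted p = 0.00425), and 1 of 21 is near the 4.09% of all genes called higher. Both lists held 0 calls in BJELM against BJEL, with 5 of 13 and 6 of 21 genes at an unadjusted p under 0.05 (25.4% of all genes). Among the brakes, 1 gene passed the adjusted p below the fold minimum, and in the mitotic exit list 3 of 21 did so. The gene among the brakes was CHEK2, higher in BJELM by 0.83 ± 0.18 (adjusted p = 0.037) and chosen after its value was seen. Of the 13 brakes, 9 lay below 0 and 4 above.

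**Figure D4:**
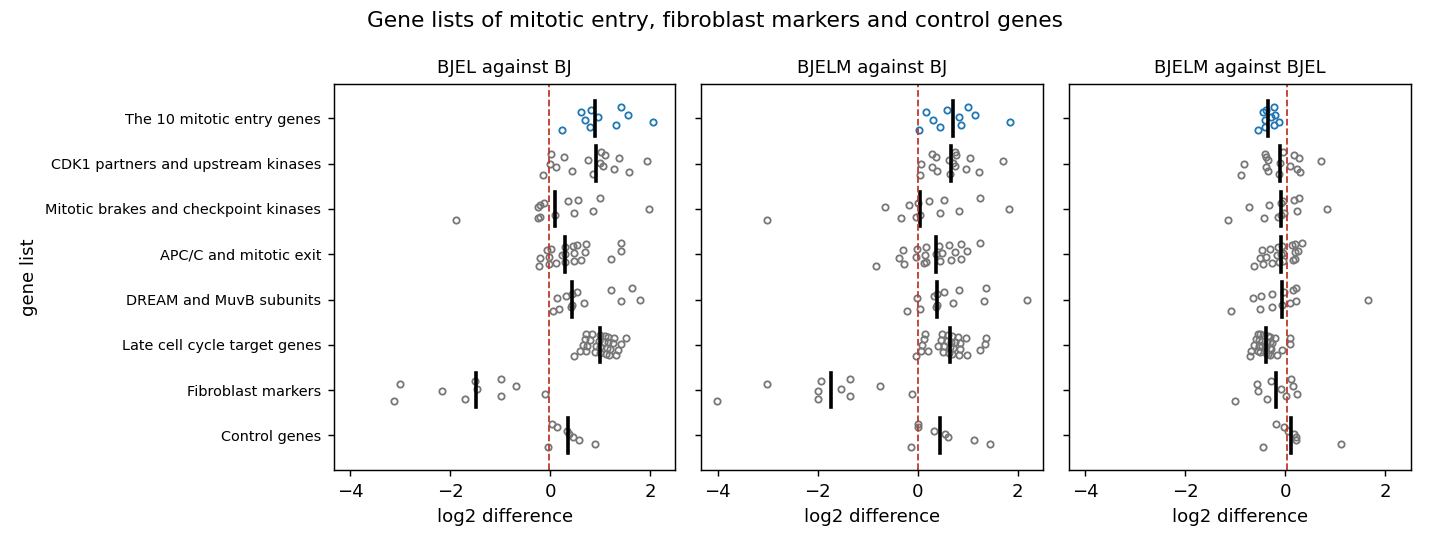
Log2 difference (horizontal axis) of every measured gene of 8 lists (vertical axis; circles, spread vertically for legibility) in the 3 comparisons, with thick bars for list medians and a dashed line for the median of all genes. The mitotic entry genes and the late cell cycle targets have medians of 0.89 and 0.99 in BJEL against BJ and of -0.34 and -0.39 in BJELM against BJEL, and fibroblast markers have medians of -1.49 and -1.74 against BJ.

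Against BJ, fibroblast markers were lower where the mitotic entry genes were higher. Of 10, 6 fell in BJEL (2.29% of all genes) and 8 in BJELM (4.70% of all genes), each against BJ (medians -1.49 and -1.74). The falls were led by S100A4 (-3.12 ± 0.23, adjusted p = 0.001, in BJEL) and the proteoglycan gene DCN (-4.02 ± 0.47, adjusted p = 0.00188, in BJELM). Between BJELM and BJEL, where the mitotic entry genes were lower, the median of the fibroblast markers was -0.18, with 6 of 10 below 0 (43.6% of all genes). By limma 0 of them were called, while 2 had an unadjusted p under 0.05 (25.4% of all genes). The median of the control genes was 0.36 over 8 genes in BJEL, where 0 were called by limma and 5 had an unadjusted p under 0.05 (30.6% of all genes), and 0.43 in BJELM against BJ, where TFRC (1.45 ± 0.11, adjusted p = 0.000522) and HPRT1 (1.11 ± 0.20, adjusted p = 0.00807) rose. TFRC also rose from BJEL to BJELM (1.12 ± 0.11, adjusted p = 0.00446). Their part in the results on mitotic entry was not tested.

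The genes nearest to the median profile of the members over the 6 arrays were CKAP2, H4C6, NEK2, ERI2 and TPX2. Likeness was measured as the root mean square distance between log2 values centred on the mean of each gene, which was 0.056 for CKAP2, 0.061 for H4C6, 0.062 for NEK2, 0.068 for ERI2 and 0.070 for TPX2. The median member profile ran through -0.66 and -0.35 in BJ, 0.38 and 0.42 in BJEL, and 0.12 and -0.055 in BJELM. CKAP2, a spindle protein, followed at -0.62 and -0.38, 0.41 and 0.48, and 0.068 and 0.039. NEK2 and TPX2 also belong to the late cell cycle list, and H4C6 is a histone gene with near-identical copies, so its probe set may read several of them. Among the members themselves, CDC25A lay farthest from the median profile, at 0.599, and CCNB2 nearest, at 0.055.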

How the data were processed

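RNA of each line (BJ, BJEL and BJELM, with 2 biological replicates of each per the labels and methods) was hybridised to 6 one-color arrays. The deposited values are log2 signals per probe set, which the authors computed by RMA over all arrays together. The submitters' processing notes name version 1.3.1 of Affymetrix Expression Console. RMA removes background, quantile-normalizes and summarises probes, so a shift of all genes between lines would not be seen. Precision is limited by how few arrays there are.

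Of 33297 probe sets, 19460 were paired with 1 gene symbol in the platform annotation, 1754 with several and 12083 were not listed. The probe set with the highest mean was kept for each of 18417 genes, of which 18389 matched RefSeq by Entrez number. The genome build of that annotation is not given in the sources used here. No values were missing and no arrays were identical. Array medians lay between 7.18 and 7.27.

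A mean per line was fitted with limma 3.58.1 in R 4.3.3 over all 6 arrays, and p-values were adjusted by Benjamini-Hochberg over all genes. A gene was called at an adjusted p under 0.05 and at least a 2-fold change. The fit was tested on simulated data. The members and lists were chosen with earlier results of these data known, so no p is independent support. Named were all members, up to 4 called genes with the largest differences per list and comparison (or the 2 brightest where none was called), the 5 nearest profiles, and MYC and TERT; some of these are given by count only. Some genes of the other lists were not analysed here, and counts are of those measured. Alternatives covered single arrays, the groups fitted, the replicate number, normalization, the variance prior, dim genes, probe sets, thresholds and a plain t-test. Promoter windows and motif counts came from RefSeq GRCh38.p14.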

Additional observations from a re-analysis of the deposited data

How the results depend on the processing

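With 2 arrays per line the precision is low, and a fit without 1 array assumes that the lone array varies like the others. The count of members called higher in BJEL against BJ, 4, was 9 with no fold minimum or with a 1.5-fold minimum, and ranged from 3 to 5 when 1 array was left out. In BJELM against BJ the count of 3 was 7 with no fold minimum and 6 with a 1.5-fold minimum, and ranged from 1 (without BJELM replicate 1) to 4. In BJELM against BJEL 1 member, FOXM1, was called lower with no fold minimum. The methods' t-test, in its plain form for unequal variances, called 1 member at an unadjusted p under 0.05 in each comparison with BJ (MYBL2 and CDC25A) and 0 after Benjamini-Hochberg adjustment. CDK1 was lost when every probe set was tested, in BJEL (adjusted p = 0.0515) and in BJELM against BJ (adjusted p = 0.0861), and in the latter also after a second quantile normalization (0.98, adjusted p = 0.0632) and with only the 2 groups fitted (adjusted p = 0.0551). WEE1 in BJELM against BJ turned to -0.0038 after a second quantile normalization and ranged from -0.10 to 0.14 without single arrays, and CDC25A in BJELM against BJEL ranged from -0.45 to 0.0101. None of these reversals concerned a call, and the cause was not tested. Same-numbered arrays deviated together (r from 0.448 to 0.553 across genes), but with only 2 numbers they were treated as sharing a number. With the replicate block the member counts stayed at 4, 3 and 0. CDK1 then had an adjusted p of 0.000148 in BJEL against BJ and of 0.000267 in BJELM against BJ. CDK1 (adjusted p = 0.0301), CDC25C (adjusted p = 0.0324) and FOXM1 (adjusted p = 0.0176) were lower in BJELM against BJEL below the fold minimum. All genes called higher and lower numbered 564 and 429, 763 and 881, and 174 and 370 with the block. Without the block they numbered 533 and 421, 753 and 866, and 170 and 324.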
